A study of Mus musculus with 9 samples.

Results

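The genes described here encode the nuclear pore, the carriers that pass through it and the Ran GTPase cycle that drives them. They were chosen by symbol: nucleoporins (Nup followed by a number), importins and transportins (Kpna, Kpnb, Ipo, Tnpo), exportins (Xpo), and 9 single genes (Tpr, Rae1, Ran, Rangap1, Ranbp1, Ranbp2, Rcc1, Nxf1 and Nxt1). This rule took 51 of the 16509 genes listed, of which 23 are pore genes, 24 are transport receptors and 4 belong to the Ran cycle. Of the 51 genes, 50 passed the filter on low counts and were tested. The exception was Nup210, a membrane nucleoporin that was listed at or near 0 in all 9 libraries. The counts of members below describe the 50 tested genes.

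The cells were MC38, a colon carcinoma line of the mouse, and their RNA was sequenced in 9 libraries, 3 for each of 3 groups. Ctrl cells received DMSO by the sample labels and PBS by the study's text. Cu-Cys cells received copper and cystine without the other parts of the nanodrug, and Cadict cells received the complete nanodrug, in which copper and cystine are assembled with glucose oxidase and carry the EGFR-binding peptide GE11. The dose and the time of treatment of the sequenced cells are not given in the sources used here. The deposited table names the treatments CC and CCGE, which were read as Cu-Cys from its initials and as Cadict from its components. The study's text says in general that in vitro experiments were repeated independently and that n counts biological replicates. Neither that text nor the sample labels say specifically that the sequenced libraries of a group came from separate cultures. The p-values therefore measure only the spread between these libraries, which may be technical. These are bulk libraries, in which fewer cells and less RNA per cell cannot be told apart.

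The nuclear pore is a ring-shaped channel through the nuclear envelope. An inner ring and an outer ring of scaffold nucleoporins hold a channel lined by proteins rich in phenylalanine-glycine (FG) repeats, with filaments on the cytoplasmic side and a basket on the nuclear side. Importins bind cargo in the cytoplasm and release it in the nucleus when they meet Ran bound to GTP, whereas exportins bind cargo together with Ran-GTP and release it in the cytoplasm after GTP is hydrolysed. The exchange factor Rcc1 on chromatin and the activating protein Rangap1 in the cytoplasm keep this gradient, and bulk mRNA leaves through a separate receptor, Nxf1 with Nxt1.

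Library totals were alike, from 17905769 to 18293060 expected counts, and a count of 0 in a library allows up to 3 counts, which is 0.164 to 0.168 CPM of the unscaled total. The TMM factors, which scale libraries so that most genes keep their level, were 1.26 to 1.27 in Ctrl, 1.21 in Cu-Cys and 0.640 to 0.665 in Cadict libraries. CPM values below are counts divided by the library total after scaling with these factors, and adjusted p-values come from the quasi-likelihood test of edgeR, adjusted by Benjamini-Hochberg over 11949 genes. The choice of scaling moves every comparison with Cadict. Against Ctrl, library totals alone moved the median log2 fold change of all genes by -0.95, the deposited TPM by -1.001 and DESeq2's size factors by 0.12. Each of the 50 tested genes was therefore also fitted under these scalings, and a change of sign is given beside the gene. The median of all genes tested, -0.13 for Cadict against Ctrl with TMM, serves as the reference. Cadict replicate 2 stood apart: its chi-square per gene, which is about 1 where 2 libraries differ by counting error alone, was 14.7 and 23.1 against the other Cadict libraries, which reached 3.63 between them. This value was 1.88 to 2.05 between Ctrl libraries and 2.66 to 4.53 between Cu-Cys libraries. The groups share 1 estimate of the spread per gene, so SEs and p-values for Cadict also rest on the less variable groups. The carcinoma origin was checked on marker genes. The epithelial and fibroblast lists were both split, so no origin was read from them. Epcam and Krt18 were at or near 0 in every group, and Krt8 was at most 1.44 CPM. Cdh1 had means of 4.86, 3.12 and 12.8 CPM in Ctrl, Cu-Cys and Cadict, and Krt19 1.05, 0.84 and 10.8. The epithelial list of 5 genes summed to 5.28 to 6.79 CPM in Ctrl, 3.83 to 4.38 in Cu-Cys and 23.6 to 25.7 in Cadict. The fibroblast list of 4 genes summed to 651 to 685, 378 to 386 and 170 to 185 CPM. Most of this was Col1a2 (means 568, 315 and 124) and Pdgfrb (76.8, 59.1 and 44.75). Col1a1 had means of 19.0, 6.96 and 6.73, and Dcn 0.61, 0.57 and 1.08. The 3 leukocyte genes listed summed to at most 0.872 CPM and both endothelial genes to at most 2.44 CPM. The part of these differences in the results below was not tested.

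Promoter sequences of 6 genes are shown because the results turn on them. The 4 Ran cycle genes rose in both treated groups with TMM scaling, although Ranbp1 was negative in Cadict cells with deposited TPM, and Kpna2 and Kpna4, which encode alternative importin alpha adaptors, moved in opposite directions in Cadict cells. Each sequence runs from 250 bases before to 50 bases after the RefSeq transcription start on mouse assembly GRCm38.p6, 5′ to 3′ on the strand of the gene. Capitals mark 3 motifs. The E-box was searched as CACGTG. The box named CCAAT was searched by those letters. The cell cycle homology element was searched as TTTGAA. Each was searched on both strands, so that a match on the other strand appears as its reverse complement. The ETS motif (CCGGAAG) and the CRE core (TGACGTCA) were also searched and had no match in these 6 windows. Ran lies at chr5:129019906-129020205 (plus strand), Rangap1 at chr15:81729870-81730169 (minus), Ranbp1 at chr16:18248645-18248944 (minus), Rcc1 at chr4:132345701-132346000 (minus), Kpna2 at chr11:106999476-106999775 (minus) and Kpna4 at chr3:69127043-69127342 (minus).
Ran: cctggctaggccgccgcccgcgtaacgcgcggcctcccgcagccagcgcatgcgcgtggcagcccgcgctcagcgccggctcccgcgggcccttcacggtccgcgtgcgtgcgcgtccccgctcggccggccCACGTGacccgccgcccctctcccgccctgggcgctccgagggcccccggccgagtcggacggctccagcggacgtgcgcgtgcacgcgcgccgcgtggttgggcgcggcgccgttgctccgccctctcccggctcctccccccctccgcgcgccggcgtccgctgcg
Rangap1: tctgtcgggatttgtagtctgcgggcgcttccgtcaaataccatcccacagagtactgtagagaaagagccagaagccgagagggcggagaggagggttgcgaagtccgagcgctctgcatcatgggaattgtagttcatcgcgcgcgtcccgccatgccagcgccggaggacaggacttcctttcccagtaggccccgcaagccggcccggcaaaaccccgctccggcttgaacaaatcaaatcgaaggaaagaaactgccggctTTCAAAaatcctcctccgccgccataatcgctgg
Ranbp1: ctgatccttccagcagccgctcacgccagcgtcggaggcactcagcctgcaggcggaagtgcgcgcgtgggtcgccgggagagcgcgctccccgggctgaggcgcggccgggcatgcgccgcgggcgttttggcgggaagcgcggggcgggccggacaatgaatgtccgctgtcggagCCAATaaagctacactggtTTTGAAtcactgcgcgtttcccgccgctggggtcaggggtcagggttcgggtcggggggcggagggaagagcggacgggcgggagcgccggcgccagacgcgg
Rcc1: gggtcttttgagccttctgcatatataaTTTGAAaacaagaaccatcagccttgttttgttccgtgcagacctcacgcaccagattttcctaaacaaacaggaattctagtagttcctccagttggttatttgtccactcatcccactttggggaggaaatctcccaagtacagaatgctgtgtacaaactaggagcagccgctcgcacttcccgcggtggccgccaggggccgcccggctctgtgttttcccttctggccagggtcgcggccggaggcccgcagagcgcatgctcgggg
Kpna2: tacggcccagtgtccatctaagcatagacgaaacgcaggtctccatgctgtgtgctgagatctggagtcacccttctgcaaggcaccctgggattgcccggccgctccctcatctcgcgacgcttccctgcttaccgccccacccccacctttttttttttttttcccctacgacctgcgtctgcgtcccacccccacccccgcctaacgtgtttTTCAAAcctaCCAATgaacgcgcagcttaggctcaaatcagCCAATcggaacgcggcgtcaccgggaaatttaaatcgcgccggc
Kpna4: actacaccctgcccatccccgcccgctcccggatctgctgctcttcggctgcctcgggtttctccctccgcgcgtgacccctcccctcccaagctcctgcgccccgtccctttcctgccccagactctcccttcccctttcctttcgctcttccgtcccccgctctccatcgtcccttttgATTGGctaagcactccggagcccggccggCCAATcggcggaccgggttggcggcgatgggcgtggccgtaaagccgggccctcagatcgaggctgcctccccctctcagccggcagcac

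The table of promoters held 51 entries for 42 of the 51 genes. The E-box occurred in 17.6% of these promoters and in 7.15% of all 32851 promoters of the same length, the CCAAT box in 49.0% and 37.4%, the TTTGAA element in 21.6% and 17.9%, the ETS motif in 15.7% and 8.86%, and the CRE core in 3.92% and 1.79%. No base lay in more than one motif, and the median GC content was 64.3% in the members' promoters against 52.7% in all promoters. Ran carried the E-box. Rangap1, Ranbp1, Rcc1 and Kpna2 each carried 1 TTTGAA element, while Kpna2 and Kpna4 each carried 2 CCAAT boxes and Ranbp1 carried 1. A match describes these letters only.

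**Figure D1:**
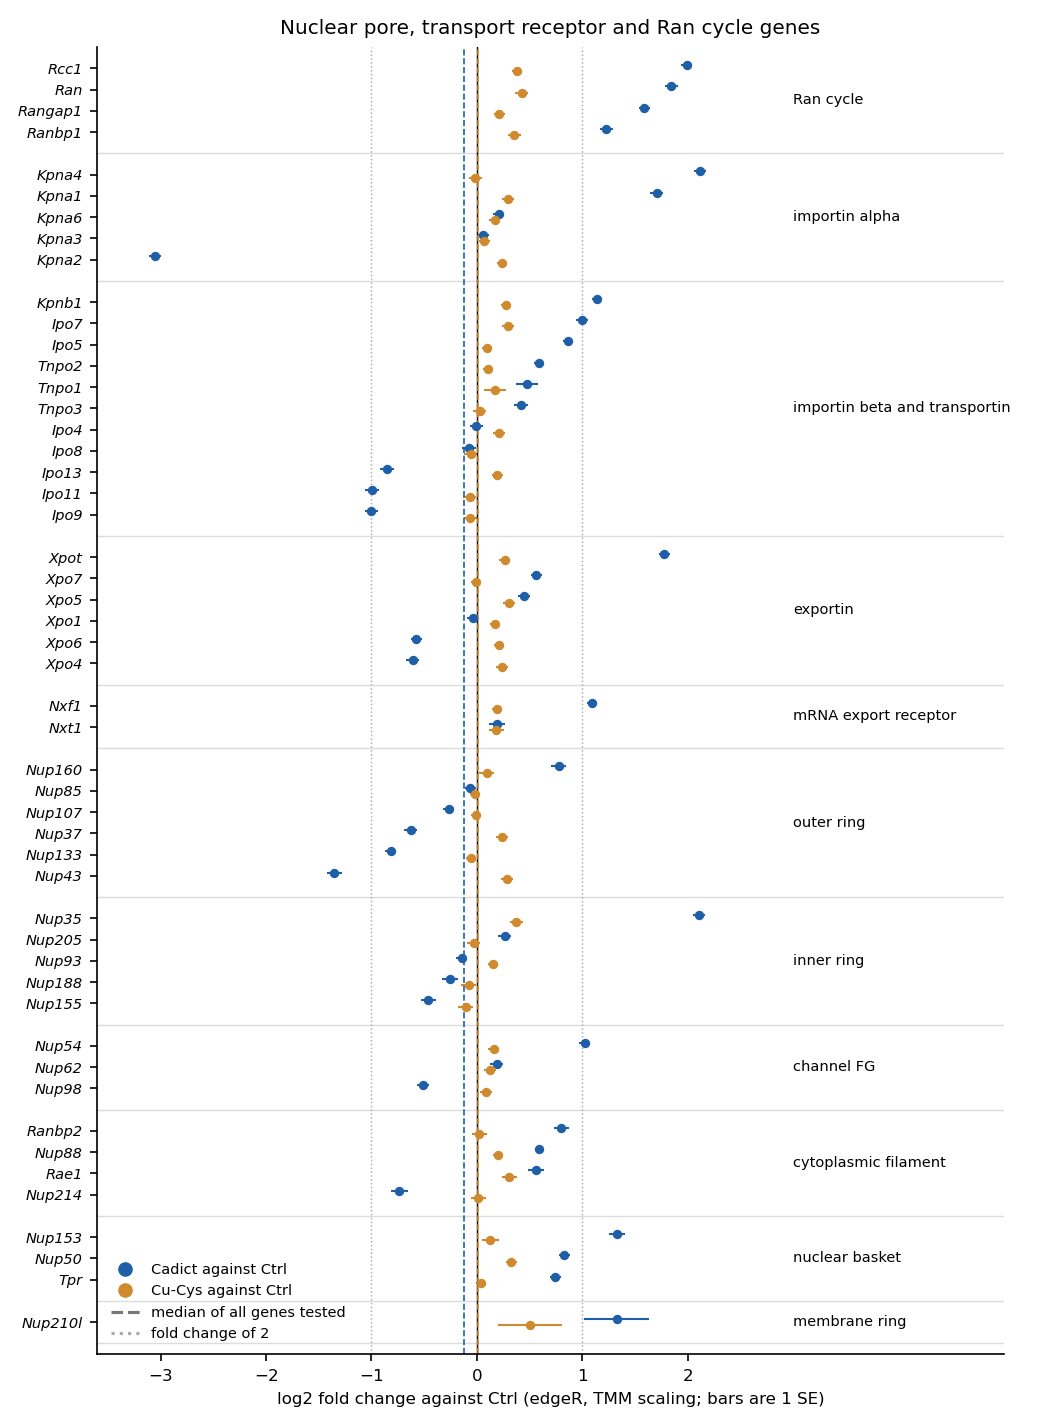
Log2 fold change against Ctrl on the horizontal axis for the 50 tested genes, sorted by role, in Cadict (blue) and Cu-Cys cells (orange), with TMM scaling; bars are 1 SE, dashed lines are the medians of all genes tested and dotted lines mark a fold change of 2. Blue points spread from -3.05 (Kpna2) to 2.12 (Kpna4), whereas orange points stay between -0.11 and 0.51; with library totals or deposited TPM the blue points lie lower and many change sign.

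In Cadict against Ctrl cells, the transport genes changed in both directions. All 4 Ran cycle genes rose, the main importin alpha of control cells fell while 2 others rose, the tRNA exportin Xpot rose and the general exportin Xpo1 did not pass the test, and the pore genes moved in both directions. A gene counts as called below where it changed by 2-fold or more and its adjusted p did not exceed 0.001, the limits used in the study. By this rule 14 members were called higher, where 20.7% of all genes tested were, and 3 were called lower (Kpna2, Nup43 and Ipo9), where 27.1% of all genes were. A gene counts as passing where its adjusted p did not exceed 0.05, whatever its fold change. By that limit 30 members were higher against 40.6% of all genes and 15 were lower against 47.1%. The median log2 fold change of the members was 0.43 against -0.13 for all genes. The CPM of the Cadict and Ctrl libraries did not overlap for 45 of the 50 genes, where those of 87.5% of all genes tested did not. Library totals gave 3 members called higher and 17 lower (6.93% and 51.5% of all genes), and limma on deposited TPM gave 0 and 23 (3.26% and 54.2% of all genes), so the split between rises and falls rests on the scaling. Without Cadict replicate 2 the counts were 14 and 3 (20% and 26.5% of all genes). Relative to the median of all genes, 35 members lay above it with TMM and 30 to 35 under the other scalings, filters and tests. The members' median exceeded that of all genes by 0.56 with TMM, and by as little as 0.27 with deposited TPM at a pseudocount of 1.

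All 4 Ran cycle genes rose with TMM scaling, and Ran, Rangap1 and Rcc1 rose under every scaling. Ran, the small GTPase itself, had 406, 434 and 444 CPM in the 3 Ctrl libraries, 559, 585 and 581 in Cu-Cys and 1466, 1684 and 1456 in Cadict. The 3 groups did not overlap. Ran was 3.59-fold higher in Cadict than in Ctrl (log2 fold change 1.84 ± 0.062 SE, adjusted p = 2.07e-13).

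Rcc1, which loads Ran with GTP on chromatin, had 127, 129 and 120.5 CPM in Ctrl, 165, 157 and 168 in Cu-Cys and 506, 496 and 493 in Cadict. It showed the largest change of the 4 genes (1.99 ± 0.049, adjusted p = 6.37e-15). Rangap1, which triggers GTP hydrolysis in the cytoplasm, had 192, 194 and 182 CPM in Ctrl, 229, 207 and 222 in Cu-Cys and 554, 593 and 563 in Cadict. Its log2 fold change in Cadict against Ctrl was 1.59 ± 0.053 (adjusted p = 2.05e-13). The opposed enzymes of the cycle changed in the same direction at the mRNA level.

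Ranbp1, a Ran-GTP binding protein that assists hydrolysis, had 177, 174 and 176 CPM in Ctrl, 226, 225 and 223 in Cu-Cys and 388, 461 and 387 in Cadict. It rose by 1.23 ± 0.062 (adjusted p = 2.61e-11) with TMM scaling, but lay at -0.11 on the scale of deposited TPM. Relative to the median of all genes, Ranbp1 was 1.02 to 1.35 log2 units higher, Rangap1 1.41 to 1.72, Ran 1.66 to 1.97 and Rcc1 1.81 to 2.12 under all scalings, filters and tests tried with all 9 libraries. Rcc1 shares 1.54% of its 50-base transcript stretches with other annotated genes, Rangap1 0.550%, Ran 14.1% and Ranbp1 15.9%.

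**Figure D2:**
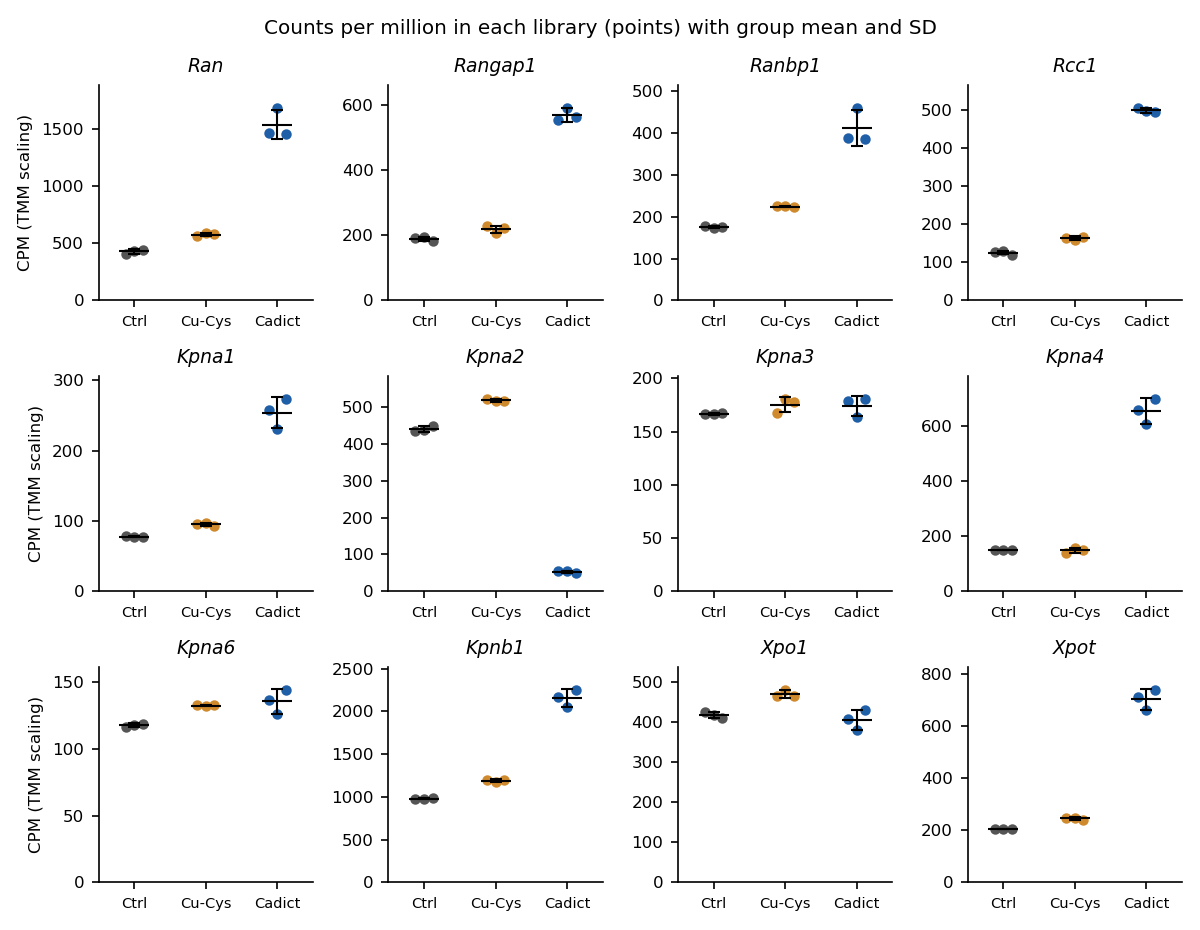
CPM with TMM scaling (vertical axes from 0) in each of the 9 libraries (points) with group means and SDs (black) for the 4 Ran cycle genes, the 5 importin alpha genes, Kpnb1, Xpo1 and Xpot. Kpna2 is at 434 to 448 CPM in Ctrl and 49.5 to 55.1 in Cadict, while Kpna4 goes from 149 to 152 to 605 to 698; with deposited TPM Ranbp1 and Kpnb1 change sign against Ctrl.

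The importin alpha family changed its makeup. Importin alpha proteins bind the classical nuclear localization signal and link cargo to importin beta. Kpna2 had 434, 436 and 448 CPM in Ctrl, 522, 516 and 515 in Cu-Cys and 55.1, 54.3 and 49.5 in Cadict. It was 8.29-fold lower in Cadict than in Ctrl (-3.05 ± 0.055, adjusted p = 2.93e-16), the largest change among the 50 members. Kpna4 had 152, 149 and 150.3 CPM in Ctrl, 139, 157 and 151 in Cu-Cys and 655, 605 and 698 in Cadict. It was 4.34-fold higher in Cadict than in Ctrl (2.12 ± 0.061, adjusted p = 3.63e-14), whereas Cu-Cys and Ctrl overlapped. Kpna1 had 78.3, 77.1 and 78.0 CPM in Ctrl, 95.4, 97.8 and 93.4 in Cu-Cys and 257, 231 and 274 in Cadict, a change of 1.71 ± 0.060 in Cadict against Ctrl (adjusted p = 3.48e-13). Kpna6 changed by 0.21 ± 0.053 with TMM (adjusted p = 0.00185) and by -1.06 with deposited TPM, and Kpna3 by 0.06 ± 0.052 (adjusted p = 0.265) with TMM and -1.22 with deposited TPM. The directions of Kpna2, Kpna4 and Kpna1 were the same under every scaling, filter and left-out library.

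Levels of different genes can be compared only per length. In summed TPM of the 5 importin alpha genes, a ratio within each library that the scaling of libraries cannot move, Kpna2 held 66.9% ± 0.348 (SD, n = 3) in Ctrl, 69.1% ± 0.952 in Cu-Cys and 8.86% ± 1.01 in Cadict. Kpna4 held 11.5% ± 0.190, 9.99% ± 0.541 and 54.8% ± 0.539, and Kpna1 held 4.60% ± 0.0820, 4.89% ± 0.154 and 16.2% ± 1.08. The leading importin alpha was thus Kpna2 in all 6 Ctrl and Cu-Cys libraries and Kpna4 in all 3 Cadict libraries. The share of Kpna3 went from 11.3% in Ctrl to 12.97% in Cadict and that of Kpna6 from 5.67% to 7.18%. The summed TPM of the family was 821 ± 10.8 in Ctrl, 847 ± 9.57 in Cu-Cys and 305 ± 49.3 in Cadict. Of the 50-base stretches in Kpna2 transcripts, 62.6% also occur in transcripts of 13 other annotated genes, so its level depends on how such reads were divided. The shared part was 0.0225% for Kpna4 and 0 for Kpna1, Kpna3 and Kpna6.

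**Figure D3:**
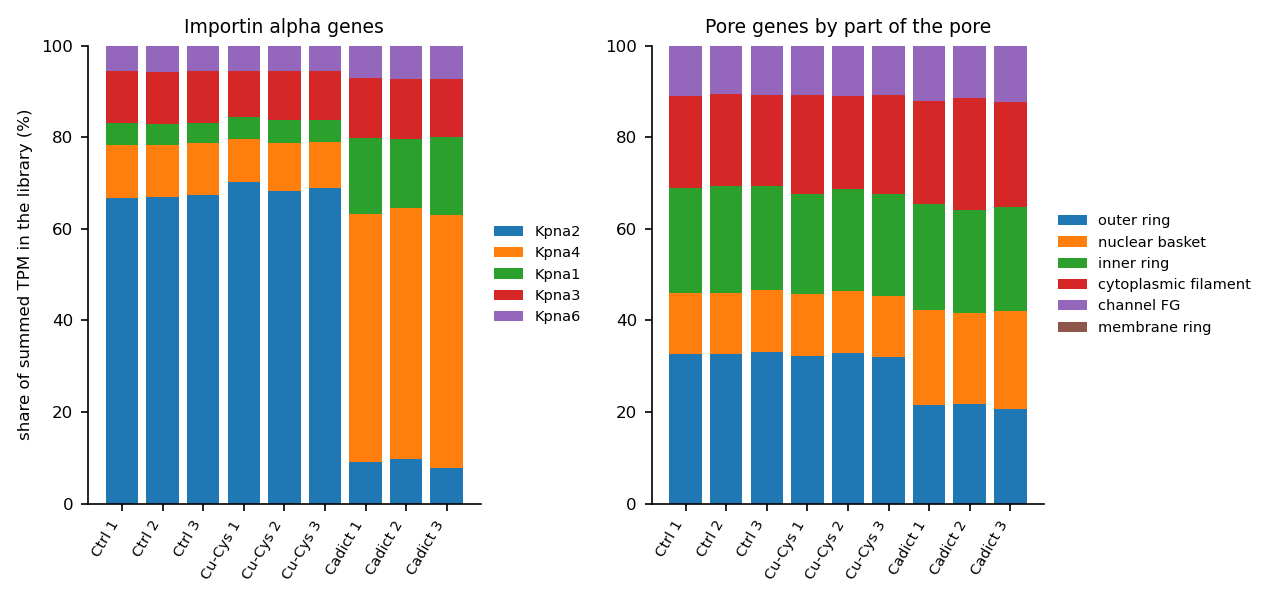
Share of summed TPM (vertical axes, %) in each of the 9 libraries, for the 5 importin alpha genes (left) and for the pore genes by part of the pore (right). Kpna2 fills 66.6 to 67.3% of the left bars in Ctrl and 7.77 to 9.76% in Cadict, and the outer ring fills 32.7 to 33.0% of the right bars in Ctrl and 20.6 to 21.7% in Cadict.

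Of the 11 importin beta and transportin genes, 6 passed as higher and 3 as lower, and their median log2 fold change was 0.42, where 40.6% of all genes passed as higher and 47.1% as lower. With deposited TPM 0 passed as higher and 10 as lower, where 11.9% and 79.9% of all genes did. Kpnb1, importin beta 1, the carrier that importin alpha serves, had 979, 969.5 and 986 CPM in Ctrl, 1201, 1172 and 1193 in Cu-Cys and 2162, 2046 and 2253 in Cadict. It rose by 1.14 ± 0.048 (adjusted p = 3.06e-12) with TMM and lay at -0.16 with deposited TPM. Ipo7 (1.001 ± 0.057, adjusted p = 1.02e-10) and Ipo5 (0.87 ± 0.046, adjusted p = 4.86e-11), which carry ribosomal proteins and histones, were higher with TMM and lay at -0.30 and -0.43 with deposited TPM. The transportins Tnpo1, Tnpo2 and Tnpo3 changed by 0.48, 0.59 and 0.42 with TMM and by -0.76, -0.69 and -0.86 with deposited TPM.

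In contrast, 3 importins fell under every scaling. Ipo9, a histone carrier, had 282, 284 and 282 CPM in Ctrl and 144, 124 and 155 in Cadict, which did not overlap (-1.001 ± 0.064, adjusted p = 5.04e-10). Ipo11 (-0.99 ± 0.066, adjusted p = 7.77e-10) and Ipo13 (-0.85 ± 0.066, adjusted p = 5.19e-09) fell by nearly as much. Ipo4 (-0.0038 ± 0.063, adjusted p = 0.955) and Ipo8 (-0.07 ± 0.069, adjusted p = 0.33) did not pass the test with TMM. Both were positive with DESeq2's size factors, at 0.12 and 0.046, and negative with deposited TPM, at -1.25 and -1.31. Ipo4 shares 51.6% of its 50-base stretches with 1 other annotated gene.

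Among the 6 exportins, the tRNA exportin stood out. Xpot had 205, 207 and 204 CPM in Ctrl, 249.7, 249 and 241 in Cu-Cys and 713, 662 and 742 in Cadict. The groups did not overlap, and Xpot was 3.44-fold higher in Cadict than in Ctrl (1.78 ± 0.052, adjusted p = 4.14e-14), with a positive change under every scaling. Xpo1, the exportin of proteins with a leucine-rich export signal, had 425, 417 and 409 CPM in Ctrl, 464, 480.2 and 465 in Cu-Cys and 407, 380.3 and 430.0 in Cadict. Cadict and Ctrl overlapped (-0.04 ± 0.052, adjusted p = 0.482), the sign turned with DESeq2's size factors (0.08), and with library totals Xpo1 lay at -0.99. Without Cadict replicate 2 its change was 0.0042. Within the summed TPM of the exportins, Xpo1 held 38.6% ± 0.516 (SD, n = 3) in Ctrl and 25.9% ± 0.234 in Cadict, and Xpot 15.5% ± 0.0740 and 36.6% ± 0.137.

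Xpo5, which exports precursor microRNAs, changed by 0.45 ± 0.056 (adjusted p = 1.85e-06) and Xpo7 by 0.56 ± 0.051 (adjusted p = 3.76e-08), both with TMM and both negative with library totals and deposited TPM. Xpo4 (-0.61 ± 0.061, adjusted p = 1.34e-07) and Xpo6, the exportin of actin with profilin (-0.57 ± 0.055, adjusted p = 6.73e-08), fell under every scaling. The mRNA export receptor Nxf1 had 128, 131 and 125 CPM in Ctrl, 153, 144 and 141 in Cu-Cys and 275, 274 and 268 in Cadict. It rose by 1.09 ± 0.049 with TMM (adjusted p = 5.78e-12) and lay at -0.13 with deposited TPM. Its partner Nxt1 changed by 0.19 ± 0.076 (adjusted p = 0.0283), a change that was negative with library totals and deposited TPM and did not pass without Ctrl replicate 1 or 3 or Cadict replicate 2 or 3 (adjusted p from 0.0587 to 0.108).

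The pore genes had no common direction. Of the 22 tested, 12 passed as higher and 9 as lower, 4 were called higher and 1 lower, and their median was 0.23. Of all genes tested, 40.6% passed as higher, 47.1% as lower, 20.7% were called higher and 27.1% lower. With deposited TPM 1 pore gene passed as higher and 19 as lower, where 11.9% and 79.9% of all genes did. All 3 nuclear basket genes were higher with TMM, whereas 4 of the 6 outer ring genes that the symbols take were lower and 1 higher. In pore TPM within a library, the basket held 13.4% ± 0.190 (SD, n = 3) in Ctrl, 13.4% ± 0.174 in Cu-Cys and 20.8% ± 0.840 in Cadict, and the outer ring 32.8% ± 0.179, 32.4% ± 0.395 and 21.2% ± 0.573. The Cadict libraries did not overlap with the other 6 in either share. The symbols leave out other subunits of the outer ring. With Sec13, Seh1l and Ahctf1 counted in, a choice made after their values were seen, the outer ring held 43.8% ± 0.00926 in Ctrl, 44.3% ± 0.351 in Cu-Cys and 38.4% ± 1.33 in Cadict, and the basket 11.2% ± 0.185, 11.1% ± 0.144 and 16.2% ± 0.885, still without overlap between Cadict and the other 6 libraries.

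In the basket, Nup153, an FG nucleoporin that anchors the basket, had 166, 159 and 173 CPM in Ctrl, 174, 192 and 178 in Cu-Cys and 425, 357 and 469 in Cadict (1.33 ± 0.080, adjusted p = 2.06e-10). With deposited TPM its change was 0.06. Nup50, which helps importin alpha release cargo, changed by 0.83 ± 0.053 (adjusted p = 4.25e-10) and Tpr, the filament protein of the basket, by 0.75 ± 0.050 (adjusted p = 9.1e-10), both with TMM and both negative with library totals and deposited TPM.

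In the outer ring, whose Y-shaped complexes form the scaffold on both faces, Nup43 had 34.5, 36.0 and 36.3 CPM in Ctrl, 43.6, 44.4 and 42.0 in Cu-Cys and 14.2, 14.7 and 12.8 in Cadict. Cadict lay below both other groups without overlap (-1.35 ± 0.071, adjusted p = 4.25e-11). Nup133 (-0.82 ± 0.051, adjusted p = 3.91e-10) and Nup37 (-0.63 ± 0.064, adjusted p = 1.59e-07) also fell, with the same direction under every scaling. Nup107 fell with TMM (-0.27 ± 0.049, adjusted p = 0.000111). Nup160 of the same complex changed by 0.78 ± 0.073 (adjusted p = 5.67e-08) with TMM and was negative with library totals and deposited TPM, and Nup85 did not pass the test (-0.06 ± 0.049, adjusted p = 0.251) and was positive with DESeq2's size factors (0.058). Of the subunits that the symbols leave out, Sec13, which also coats vesicles, was called higher (1.20 ± 0.055, adjusted p = 7.82e-12) and Seh1l passed as higher (0.52 ± 0.048, adjusted p = 5.29e-08), both with TMM and both negative with deposited TPM. Ahctf1, which starts pore assembly on chromatin, fell by 0.23 on the log2 scale with TMM (SE 0.058, adjusted p = 0.00154). With these genes, the changes within the complex went from -1.35 to 1.20.

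In the inner ring, Nup35 had 33.0, 32.6 and 33.3 CPM in Ctrl, 40.1, 44.5 and 43.6 in Cu-Cys and 146, 144 and 136 in Cadict. It was 4.301-fold higher in Cadict than in Ctrl (2.105 ± 0.057, adjusted p = 2.07e-14) and higher under every scaling, while 39.2% of its 50-base stretches also occur in 2 other annotated genes. The other inner ring genes changed little: Nup205 by 0.26 ± 0.060 with TMM (negative with library totals and deposited TPM), Nup93 by -0.14 ± 0.049, Nup188 by -0.25 ± 0.075 and Nup155 by -0.46 ± 0.071. Nup93 and Nup188 no longer passed with DESeq2's size factors or Wald test, and Nup93 did not pass without Cadict replicate 1 (adjusted p = 0.0628).

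Of the channel FG genes, Nup54 changed by 1.02 ± 0.052 (adjusted p = 2.59e-11) with TMM and was negative with deposited TPM. Nup62 changed by 0.19 ± 0.062 with TMM (adjusted p = 0.00969), no longer passed with either other filter or without Ctrl replicate 2 (adjusted p = 0.0516) or Cadict replicate 3 (adjusted p = 0.0648), and was negative with library totals and deposited TPM. Nup98, whose gene also encodes the outer ring protein Nup96, fell by 0.51 on the log2 scale (SE 0.059, adjusted p = 6.89e-07). On the cytoplasmic side, Ranbp2, the filament protein that holds Rangap1 at the pore, changed by 0.80 ± 0.071 (adjusted p = 2.61e-08), Nup88 by 0.59 ± 0.046 (adjusted p = 5.2e-09) and Rae1, an mRNA export factor, by 0.56 ± 0.074 (adjusted p = 2.97e-06), each with TMM and each negative with library totals and deposited TPM. Nup214, the partner of Nup88, fell by 0.74 on the log2 scale (SE 0.079, adjusted p = 2.63e-07) under TMM and fell under every other scaling too. The membrane gene Nup210l was called higher at 0.476 to 0.779 CPM in Ctrl and 1.13 to 2.29 in Cadict, or 11 to 18 and 13 to 27 expected counts (1.33 ± 0.31, adjusted p = 0.000896). It lay at 0.0095 with deposited TPM and was not called without any one of 8 of the libraries (adjusted p from 0.00145 to 0.0121), Cadict replicate 2 being the exception.

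**Figure D4:**
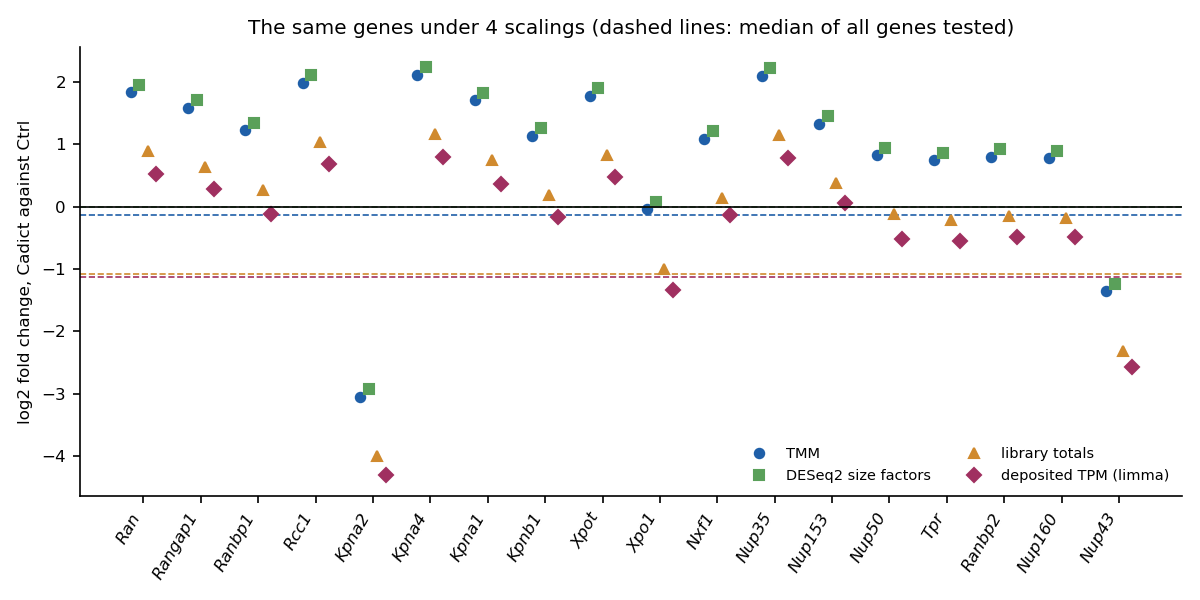
Log2 fold change of Cadict against Ctrl (vertical axis) for 18 genes with TMM (circles), DESeq2 size factors (squares), library totals (triangles) and deposited TPM in limma (diamonds); dashed lines are the median of all genes tested in each. Kpna2 and Nup43 stay below 0, and Ran, Rangap1, Rcc1, Kpna4, Kpna1, Xpot, Nup35 and Nup153 stay above 0, in all 4, whereas Ranbp1, Kpnb1, Nxf1, Nup50, Tpr, Ranbp2 and Nup160 lie on both sides of 0.

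Pore genes and transport receptors were compared as groups. In Cadict against Ctrl the median log2 fold change was 0.23 for 22 pore genes and 0.31 for 24 receptors, a difference of -0.08. In Cu-Cys against Ctrl the medians were 0.11 and 0.18, a difference of -0.07, and in Cadict against Cu-Cys they were 0.16 and 0.09, a difference of 0.07 that was 0.0043 without Cadict replicate 2, 0.022 without Cu-Cys replicate 2 and 0.12 without Cu-Cys replicate 3. These differences are small beside the range within each group, from -1.35 to 2.105 for pore genes and from -3.05 to 2.12 for receptors in Cadict against Ctrl. By contrast, the median of the 4 Ran cycle genes was 1.72 in Cadict against Ctrl.

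In summed TPM within each library, the ratio of receptors to pore was 1.76, 1.77 and 1.75 in Ctrl, 1.82, 1.87 and 1.81 in Cu-Cys and 2.02, 1.93 and 2.01 in Cadict. In these sums the groups did not overlap and kept the order Ctrl, Cu-Cys, Cadict. The ratio of Ran cycle to pore was 0.902, 0.914 and 0.910 in Ctrl, 1.08, 1.09 and 1.06 in Cu-Cys and 2.03, 2.36 and 1.94 in Cadict, again without overlap. In TPM the pore sum was 1609 to 1651 in Ctrl and 726 to 931 in Cadict, while in CPM with TMM it was 2706 to 2768 and 3390 to 3853, so the direction of the pore sum itself depends on the scaling and the ratios do not. The order of the treated groups did not hold for medians. Per library, the pore median minus the receptor median was -0.111 to -0.068 in Cadict and -0.082 to -0.036 in Cu-Cys, which overlapped. In Ctrl it was -0.016 to 0.018. The fitted medians of Cadict against Cu-Cys, given above, were higher for pore genes than for receptors.

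**Figure D5:**
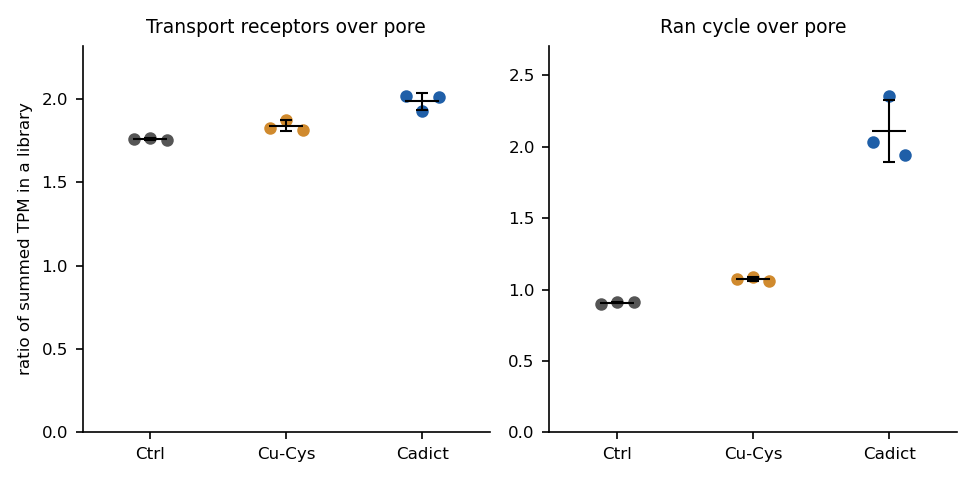
Ratio of summed TPM within a library (vertical axes from 0) of transport receptors to pore genes (left) and of the 4 Ran cycle genes to pore genes (right) in each of the 9 libraries (points), with group means and SDs (black). The receptor ratio is 1.75 to 1.77 in Ctrl and 1.93 to 2.02 in Cadict, and the Ran cycle ratio 0.902 to 0.914 and 1.94 to 2.36.

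In Cu-Cys against Ctrl cells, the changes were small, and those that passed with edgeR were rises. With edgeR's quasi-likelihood test 0 members were called higher, where 0.167% of all genes tested were, and 0 lower, where 1.47% were, and DESeq2's Wald test and limma also called 0. At the limit of 0.05, 26 members passed as higher against 22.6% of all genes, and 0 as lower against 22.4% of all genes. Without adjustment, 27 were higher and 0 lower at a p under 0.05. DESeq2's Wald test passed 1 member as lower, Nup155, as did edgeR without Cadict replicate 2. Without that library, which is in neither group but takes part in the estimate of the spread, 32 members passed as higher. With deposited TPM 4 passed as higher. The shares of all genes passing in these alternatives, or at an unadjusted p under 0.05, were not counted, so these counts have no reference. The median log2 fold change was 0.17 over the members and 0.01 over all genes. Of the 26, 8 were pore genes, 14 receptors and all 4 Ran cycle genes.

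All 4 Ran cycle genes passed as higher. Ran was 1.34-fold higher in Cu-Cys than in Ctrl (0.43 ± 0.060, adjusted p = 5.63e-05), Rcc1 was higher by 0.38 ± 0.048 (adjusted p = 2.15e-05), Ranbp1 by 0.35 ± 0.062 (adjusted p = 0.000325) and Rangap1 by 0.21 ± 0.052 (adjusted p = 0.00429), each with 3 libraries above all 3 of Ctrl; the 2 groups did not overlap for 36 of the 50 members and 61.2% of all genes. Nup35 (0.38 ± 0.058, adjusted p = 0.000131) and Nup50 (0.32 ± 0.052, adjusted p = 0.000168) led the pore genes that passed. Of the exportins, 5 of 6 passed as higher, from 0.17 for Xpo1 to 0.30 for Xpo5. Kpna2 was higher by 0.24 ± 0.047 (adjusted p = 0.000991) and Nup43 by 0.28 ± 0.057 (adjusted p = 0.000977), the 2 genes that fell most in Cadict against the same Ctrl libraries. Across the 50 members, which share the 6 libraries, the log2 fold change went down with transcript length (Spearman's rho -0.46, against -0.17 across 11535 genes). By class, rho was -0.59 across 22 pore genes and -0.13 across 24 receptors. The part of length in these changes was not tested.

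Cadict was also compared directly with Cu-Cys, a test of the difference between the treatments. The Ctrl libraries enter it only through the filter, the scaling and the shared estimate of the spread. In this comparison 8 members were called higher (Kpna4, Nup35, Rcc1, Xpot, Ran, Kpna1, Rangap1 and Nup153), where 18.6% of all genes were, and 3 lower (Kpna2, Nup43 and Ipo13), where 23.6% were. Passing the limit of 0.05 were 27 members as higher against 40.3% of all genes and 17 as lower against 45.6%. The CPM of the groups did not overlap for 41 members, where 85% of all genes did not overlap. Kpna2 was 9.77-fold lower in Cadict than in Cu-Cys (-3.29 ± 0.055, adjusted p = 2.03e-16) and Kpna4 4.39-fold higher (2.13 ± 0.061, adjusted p = 4.56e-14). Ran was higher by 1.42 ± 0.061 (adjusted p = 4.89e-12), Rcc1 by 1.61 ± 0.048 (adjusted p = 8.29e-14) and Rangap1 by 1.38 ± 0.053 (adjusted p = 1.3e-12). Xpo1, which did not pass against Ctrl, was lower than in Cu-Cys by 0.21 on the log2 scale with TMM (SE 0.052, adjusted p = 0.00132).

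Per length, the order of the levels also changed. In Ctrl the highest mean TPM among the members were those of Ranbp1 (721 ± 16.3, SD, n = 3), Kpna2 (549 ± 7.06), Ran (466 ± 13.2) and Kpnb1 (374 ± 7.21), and no 2 neighbours in this order overlapped. In Cadict they were Ran (674 ± 17.9), Ranbp1 (669 ± 15.05), Kpnb1 (336 ± 47.9) and Rcc1 (219.6 ± 21.1), and the first 2 overlapped. Kpna2 was at 26.7 ± 2.03 TPM in Cadict.

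Other genes of pores and transport that the symbols do not take were described by a list of 55, all of which were tested. In Cadict against Ctrl, 16 of them were called higher and 6 lower, and 30 passed as higher and 19 as lower, with a median of 0.30. Of all genes tested, 20.7% were called higher, 27.1% lower, and 40.6% and 47.1% passed. With library totals 2 were called higher and 20 lower, where 6.93% and 51.5% of all genes were. With deposited TPM these counts were 1 and 25, where 3.26% and 54.2% of all genes were called. The 20 mRNA export factors held 9 of those called higher, and 16 passed as higher and 2 as lower, with a median of 0.61. With deposited TPM 6 of these 20 passed as higher and 12 as lower, where 11.9% and 79.9% of all genes did. Their median was -0.68 beside -1.13 for all genes. With TMM, the 9 further pore genes had a median of -0.22, with 1 called higher and 2 lower. For 7 further transport receptors these values were -0.28, 0 and 2, and for 12 lamina genes -0.20, 3 and 1. The 7 further genes listed with the Ran cycle were mixed, with a median of 0.71, 3 called higher and 1 lower. The largest rises of the list were those of the RNA helicases Ddx39b (2.35 ± 0.058, adjusted p = 6.04e-15) and Ddx39a (2.14 ± 0.056, adjusted p = 1.17e-14), which load the mRNA export receptor, and of the adaptor Alyref (1.93 ± 0.058, adjusted p = 5.92e-14). These 3 were also positive with library totals and deposited TPM. The largest falls among genes averaging at least 10 CPM were those of Ranbp6, an importin relative (-2.61 ± 0.13, adjusted p = 1.6e-11), Rangrf, a Ran binding protein (-1.39 ± 0.11, adjusted p = 1.17e-08), and Nxt2, a relative of Nxt1 (-1.35 ± 0.11, adjusted p = 1.26e-08). In CPM, Ranbp6 went from a mean of 20.5 in Ctrl and 19.1 in Cu-Cys to 3.36 in Cadict. Rangrf went from 11.1 in Ctrl to 20.7 in Cu-Cys and 4.24 in Cadict. Of 2 nucleoporins listed under older symbols, named here after their values were seen, Nupl1 (Nup58) did not pass the test (-0.03 ± 0.059, adjusted p = 0.644; 0.090 with DESeq2's size factors) and Nupl2 (Nup42) was called lower (-2.26 ± 0.16, adjusted p = 1.58e-09).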

How the data were processed

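The deposited table lists expected counts, TPM and FPKM per gene and library. The submitters' processing notes list HISAT2 2.1.0, Bowtie2 2.3.4.3 and RSEM 1.3.1 without their roles, and a human and a mouse build without saying which served here. Expected counts in the deposited table are estimated reads per gene, not normalised by the authors. The authors' TPM and FPKM are length-scaled values of the same reads. The authors also deposited normalised counts (signal values, the expected count divided by 1 size factor per library), which, like FPKM, were not used for any result. The group averages, in 12 further columns, were not read. The labels name a column RNA kit and DNA nanoball sequencing, whereas the study's text names TRIzol and another sequencer.

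Expected counts were rounded and filtered with filterByExpr. A single edgeR 4.0.16 quasi-likelihood fit (R 4.3.3, TMM factors) over 3 groups tested 11949 genes, two-sided, with Benjamini-Hochberg adjustment. The fit and its contrast of Cadict against Ctrl were tested on simulated data. These had balanced rises and falls, the same dispersion for every gene and no shift in scaling. That test therefore cannot judge the scaling or the unequal spread of the groups here. Alternatives were DESeq2 size factors and Wald test (DESeq2 1.42.0), library totals, other filters, the replicate number as a block, limma 3.58.1 on log2(deposited TPM + 1) or (TPM + 0.1), and leaving out each library. Sequence windows, transcript lengths and shared stretches were read with Python 3.11.15 and pandas 2.3.3 from RefSeq GRCm38.p6 promoters and a GRCm38 annotation. Members, roles and lists were chosen with earlier results of these data known. Named genes were those of the Ran cycle and mRNA export, and in each other role the 3 largest rises and falls in Cadict against Ctrl among genes averaging at least 10 CPM; other members were added to account for all. Same-numbered libraries did not deviate together (correlations from -0.192 to 0.152 over 8551 genes), so numbers were not treated as pairs. Limits from counts of 0 cover counting error only.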

Additional observations from a re-analysis of the deposited data

How the results depend on the processing

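The comparisons with Cadict depend on the scaling of libraries. Members called higher in Cadict against Ctrl numbered 14 with TMM, 3 with library totals and 0 with deposited TPM at either pseudocount, and members called lower 3, 17, 23 and 23 in that order. Of all genes, 20.7%, 6.93%, 3.26% and 4.2% were called higher with TMM, library totals and TPM at pseudocounts of 1 and 0.1. In the same order 27.1%, 51.5%, 54.2% and 60.3% were called lower. In Cadict against Cu-Cys the counts were 8, 1, 0 and 0 higher and 3, 17, 24 and 24 lower, and 5 were called lower with no filter. Of the 11949 genes tested, 2225, 688, 359 and 466 were called higher in that order, and 2816, 5705, 5785 and 6633 lower. With no filter 3104 of 16469 genes were called lower. In Cu-Cys against Ctrl, 26 members passed as higher and 4 did with deposited TPM at either pseudocount, and 0 passed as lower, or 1 with DESeq2's Wald test. Leaving out each library gave 11 to 14 higher and 3 to 4 lower between Cadict and Ctrl, 8 higher and 3 to 4 lower in Cadict against Cu-Cys, and 20 to 32 higher and 0 to 1 lower among those passing the limit of 0.05 in Cu-Cys against Ctrl. Of all genes, 20% to 20.7% were then called higher and 25.9% to 26.8% lower between Cadict and Ctrl. In Cadict against Cu-Cys 2168 to 2240 were called higher and 2741 to 2823 lower, of 12061 to 12105 tested. The shares of all genes passing in Cu-Cys against Ctrl under other settings were not counted. The difference between pore and receptor medians in Cadict against Ctrl was -0.08 as reported, -0.048 with no filter, -0.048 with DESeq2's Wald test, and -0.041 and -0.037 with deposited TPM at pseudocounts of 1 and 0.1. In Cadict against Cu-Cys it was 0.07, 0.17 with no filter, 0.17 with DESeq2's Wald test and 0.0043 to 0.12 with a library left out. The cause was not tested.

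Single genes whose log2 fold change in Cadict against Ctrl turned negative, with library totals and then deposited TPM at pseudocounts of 1 and 0.1, were Nup160 (-0.17, -0.48, -0.50), Nup205 (-0.69, -0.92, -0.93), Nup62 (-0.76, -1.09, -1.11), Nup88 (-0.36, -0.71, -0.71), Ranbp2 (-0.15, -0.49, -0.50), Rae1 (-0.39, -0.73, -0.74), Nup50 (-0.12, -0.51, -0.53), Tpr (-0.21, -0.55, -0.56), Kpna6 (-0.75, -1.06, -1.10), Ipo5 (-0.087, -0.43, -0.43), Xpo5 (-0.51, -0.85, -0.86), Xpo7 (-0.39, -0.69, -0.70) Nxt1 (-0.76, -1.10, -1.13), Tnpo1 (-0.48, -0.76, -0.78), Tnpo2 (-0.37, -0.69, -0.70), Tnpo3 (-0.53, -0.86, -0.88) and Kpna3 (-0.89, -1.22, -1.24), which was also negative with no filter (-0.018). With deposited TPM alone the same held for Nup54 (-0.28, -0.29), Kpnb1 (-0.16, -0.16), Ipo7 (-0.30, -0.30), Ranbp1 (-0.11, -0.11) and Nxf1 (-0.13, -0.13). Xpo1 turned positive with DESeq2's size factors (0.080) and Wald test (0.041), and ranged from -0.086 to 0.0042 with a library left out. Ipo4 (0.12, 0.076), Ipo8 (0.046, 0.0067) and Nup85 (0.058, 0.019), which did not pass, also turned positive with these 2. Counting companion genes as outer ring and fitting the companions under other scalings were chosen after seeing the data. Ran, Rangap1, Rcc1, Kpna2, Kpna4, Kpna1, Xpot, Nup35, Nup43, Ipo9, Ipo11, Ipo13, Xpo4 and Xpo6 kept their direction and passed the limit of 0.05 under all 17 alternatives. The same held for the falls of Nup133, Nup37, Nup155, Nup98 and Nup214. With the replicate block, 14 members were called higher and 3 lower for Cadict against Ctrl, 8 and 3 for Cadict against Cu-Cys, and 26 passed as higher in Cu-Cys against Ctrl. Of all genes, 20.6% were called higher and 26.9% lower with the block for Cadict against Ctrl. For Cadict against Cu-Cys these were 2214 and 2805 of 11949 genes. The replicate block changed no other call among the results listed. Depth limits Nup210, at or near 0, and Nup210l, at 11 to 27 expected counts per library, and expected counts of genes that share sequence, such as Kpna2, rest on how reads were divided.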
